A study of Mus musculus with 6 samples.

Results

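Cadherins and catenins are the core proteins of the adherens junction. Transcripts of 10 of them were followed in mouse cumulus cells, namely the cadherins Cdh1, Cdh2, Cdh3, Cdh5 and Cdh11 and the catenins and catenin-like genes Ctnna1, Ctnnb1, Ctnnd1, Jup and Ctnnal1. The genes were given by name, and all array probe sets annotated with one of these symbols alone were read. This gave 22 probe sets for the 10 genes, of 34958 probe sets and 18194 genes with a single symbol in all. Between hCG-6h and hCG-0h, Ctnnd1 fell and Cdh5 was higher by 1 of its 2 probe sets, both with calls that depended on the probe set and on single samples, and the other 8 genes did not pass the test.

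The hCG-6h group held cumulus cells of wild-type female mice that were given 5 IU of human chorionic gonadotropin (hCG), the hormone used to set off ovulation, and were left for 6 h. The hCG-0h group held cumulus cells of wild-type females that were given no hCG. All mice were 21 days old at the start and had been primed for 46 h with 5 IU of equine chorionic gonadotropin (eCG), which drives follicle growth. Each group had 3 samples, and each sample pooled the cumulus cells stripped off 50 oocyte complexes in medium with 5 µM milrinone, which keeps oocytes from maturing. For samples 2 and 3 of hCG-6h a second label says 7 h and 8 h where the titles say 6 h. No mice were kept for the same time without hCG, so the effects of hCG and of time cannot be told apart. The labels do not tell whether samples came from separate animals, so p-values measure only the spread between these samples, which may be technical.

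Cadherins are membrane proteins that bind a cadherin on the neighbouring cell through calcium-dependent outer domains. Inside the cell, p120-catenin binds the part of the tail next to the membrane and holds the cadherin at the surface, while β-catenin or plakoglobin binds the end of the tail and is tied to actin by α-catenin. β-catenin also carries Wnt signals into the nucleus. Cumulus cells are held to each other and, through fine projections, to the oocyte, and during expansion after the ovulatory stimulus they move apart within a hyaluronan matrix.

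The arrays held the profile of granulosa-type cells. Within the cumulus and granulosa markers, Inha averaged 13.39 at hCG-6h and 13.46 at hCG-0h on the log2 scale, and none of the 11 measured markers lay in the low range of genes (a mean log2 level under 6.08, the lowest of 3 equal parts). Of these 11 markers, 7 fell, a share of 63.6% against 10.5% of all genes lower. The largest falls by the brightest probe set were those of Slc38a3, Fshr, Amhr2 and Npr2, with log2 changes of -3.70, -3.22, -2.65 and -2.16. The summed linear level of the 11 markers was 29297 to 31511 at hCG-6h and 50034 to 53805 at hCG-0h. Slc38a3 passed in 1 of its 2 probe sets and changed by -2.06 with them averaged. Its hCG-6h values by the brightest probe set, 5.50 to 5.70, lay in the low range, where changes are compressed. The brightest probe set of Amhr2 has the array's suffix for probes that may also match other transcripts, and all 3 of its probe sets passed. Markers of other cells did not pass the test in any of the 5 lists of such genes, at 0 of 16 oocyte, 0 of 10 endothelial, 0 of 9 theca and stroma, 0 of 8 surface epithelium and 0 of 9 leukocyte genes (limma; unadjusted p under 0.05 in 2, 2, 1, 2 and 3 of them). Each of these counts became 1 in at least 1 fit with a sample left out, with hCG-0h sample 2 left out for the oocyte, endothelial and theca lists, hCG-0h sample 1 for the surface epithelium, and hCG-6h sample 1 or 2 for leukocytes. In the oocyte list 12 of 16 genes lay in the low range. The sum of its linear levels was 852 to 943 at hCG-6h and 700 to 930 at hCG-0h. In bulk samples, fewer cells of a type and less RNA per cell cannot be told apart.

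Most cadherin and catenin transcripts did not pass the test between hCG-6h and hCG-0h. By the test over all genes 1 of the 10, Ctnnd1, fell, 0 rose and 9 did not pass, where 21.3% of all genes passed, 10.8% higher and 10.5% lower (limma, adjusted p under 0.05). The 3 values of each group did not overlap in 6 of the 10 genes, against 37.9% of all genes. Among single probe sets, 1 of Cdh5 was higher and 1 of Ctnnd1 was lower and the other 20 did not pass, where 18.7% of all probe sets passed, 9.28% higher and 9.43% lower. The groups did not overlap in 10 of the 22 probe sets, against 36.3% of all probe sets. The median log2 change was 0.24 for the 5 cadherins and 0.04 for the 5 catenins, against 0.0067 for all genes. All levels below are log2 values, all changes are hCG-6h minus hCG-0h on the log2 scale, and the gene's value is that of its brightest probe set.

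**Figure D1:**
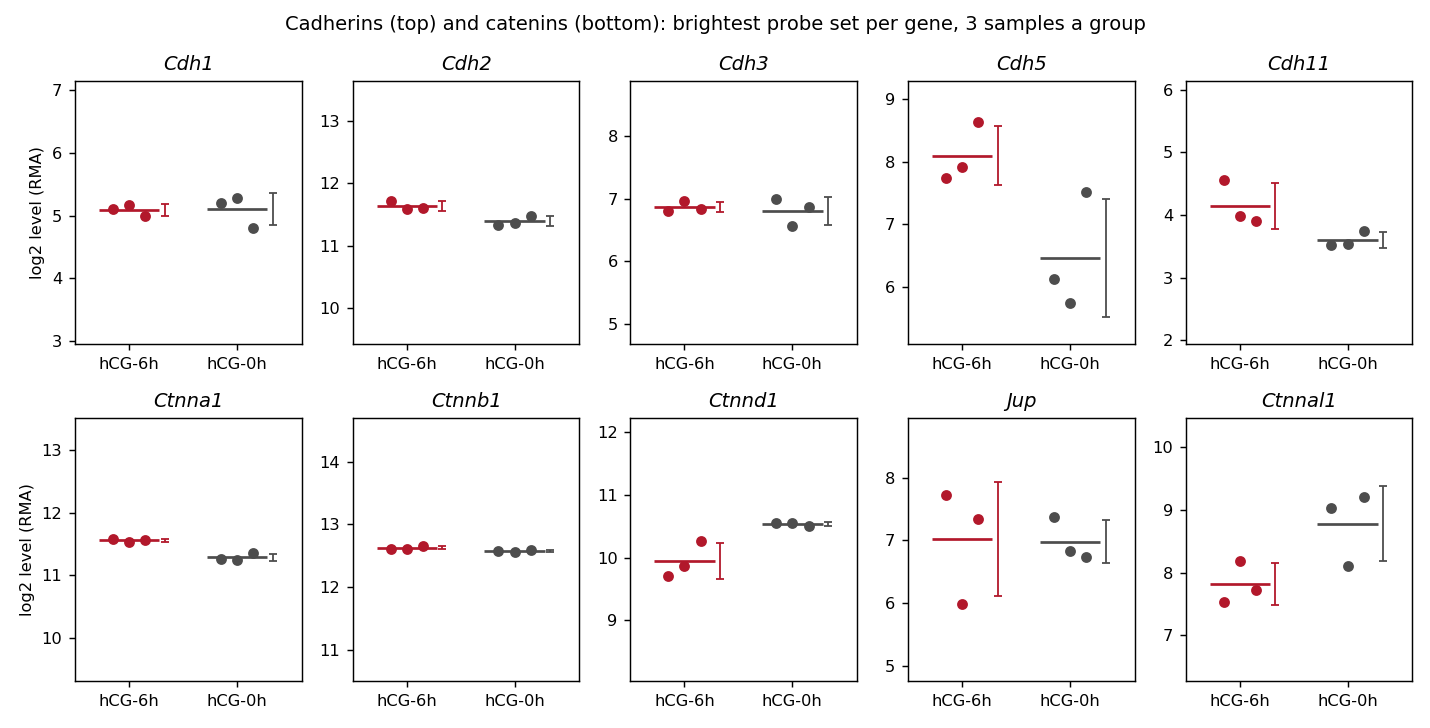
Log2 level (vertical axis, each panel spanning the same number of log2 units) of the brightest probe set of each of the 10 genes, with hCG-6h samples left and hCG-0h samples right; points are samples, lines are means and bars are SD (n = 3 each). Ctnnb1 sits between 12.55 and 12.65 in all 6 samples, Ctnnd1 lies lower in the 3 hCG-6h samples, and Cdh5, Jup and Ctnnal1 are spread widely within a group.

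Cdh2 encodes N-cadherin, the classical cadherin known from granulosa cells. Its brightest probe set read 11.72, 11.58 and 11.61 in hCG-6h samples 1 to 3, against 11.34, 11.36 and 11.48 in hCG-0h samples 1 to 3. The groups did not overlap, but the change of 0.24 ± 0.10 (SE) did not pass (adjusted p = 0.146; 95% interval 0.0043 to 0.482). A second probe set of Cdh2 read 10.29 to 10.59 at hCG-6h and 10.09 to 10.58 at hCG-0h, and its groups overlapped (change 0.08 ± 0.17, SE). The interval of the brightest probe set reaches a fold of 1.40 at most.

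Cdh1, or E-cadherin, is the cadherin of epithelia and is also carried by oocytes. Its only probe set read 5.11, 5.17 and 4.99 in the hCG-6h samples, against 5.21, 5.29 and 4.81 in the hCG-0h samples. The groups overlapped fully, and all 6 values lay in the low range (change -0.01 ± 0.15, SE, adjusted p = 0.967). At such levels background correction compresses differences, so the interval of -0.37 to 0.345 bounds only the compressed change. Cdh3, or P-cadherin, a close relative of Cdh1, had its brightest probe set at 6.80 to 6.96 at hCG-6h and at 6.56 to 6.99 at hCG-0h. Neither probe set of Cdh3 passed, and both changes were small (0.06 ± 0.14 and 0.09 ± 0.11, SE).

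Cdh5 encodes VE-cadherin, which is best known as the cadherin of blood vessel endothelium, and it had the largest change of the 10 genes. Its brightest probe set read 7.73, 7.92 and 8.63 in hCG-6h samples 1 to 3, against 6.12, 5.74 and 7.52 in hCG-0h samples 1 to 3. The change of 1.63 ± 0.48 (SE), a fold of 3.10 with a 95% interval of 1.41 to 6.80, just missed the threshold (adjusted p = 0.053). Its dimmer probe set read 8.12, 8.34 and 8.29 at hCG-6h, against 5.57, 6.91 and 4.51 at hCG-0h, and it rose by 2.59 ± 0.55 (SE, adjusted p = 0.0201 over all probe sets).

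In both probe sets of Cdh5 every hCG-6h sample lay above every hCG-0h sample. The hCG-0h samples, however, stood in opposite order: sample 3 was the highest by the brightest probe set and the lowest by the dimmer one, while sample 2 was the lowest by the brightest and the highest by the dimmer one. Averaging the 2 probe sets gave a change of 2.11 (limma, adjusted p = 0.000213). The hCG-0h SD was 0.94 for the brightest and 1.20 for the dimmer probe set. Opposite deviations of the hCG-0h samples cancel in the average, so this adjusted p does not measure either spread. By the brightest probe set of Cdh5 the change was 2.16 without hCG-0h sample 3 and passed (adjusted p = 0.00712). With each of the other 5 samples left out it was 1.27 to 1.81 and did not pass, with the lowest value without hCG-0h sample 2 (adjusted p = 0.135) and the highest adjusted p without hCG-6h sample 3 (change 1.36, adjusted p = 0.15). The call of the dimmer Cdh5 probe set was lost when hCG-6h samples 1, 2 or 3 were left out in turn (adjusted p = 0.0537, 0.0605 and 0.0618), and without hCG-0h sample 1 (adjusted p = 0.0655). Its changes in these fits were 2.54 to 2.65. It passed with a change of 3.21 without hCG-0h sample 2 (adjusted p = 0.0031) and of 2.01 without hCG-0h sample 3 (adjusted p = 0.0265).

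None of the other endothelial markers passed the test. Of 10 such genes, 9 lay in the low range, the exception being Eng, a co-receptor of TGF-beta signalling, at 6.87 at hCG-6h and 6.82 at hCG-0h. The sum of their linear levels was 464 to 478 at hCG-6h and 422 to 472 at hCG-0h, and these ranges overlapped. Pecam1, the endothelial adhesion molecule, stood at 5.34 at hCG-6h and 5.54 at hCG-0h, and Tek, the angiopoietin receptor, at 3.80 at hCG-6h and 3.59 at hCG-0h. Kdr, a receptor of vascular endothelial growth factor, stood at 5.69 at hCG-6h and 5.02 at hCG-0h and did not pass (adjusted p = 0.117). The log2 changes of the 10 genes lay between -0.58 and 0.67. The 1 that passed with hCG-0h sample 2 left out was lower at hCG-6h.

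**Figure D2:**
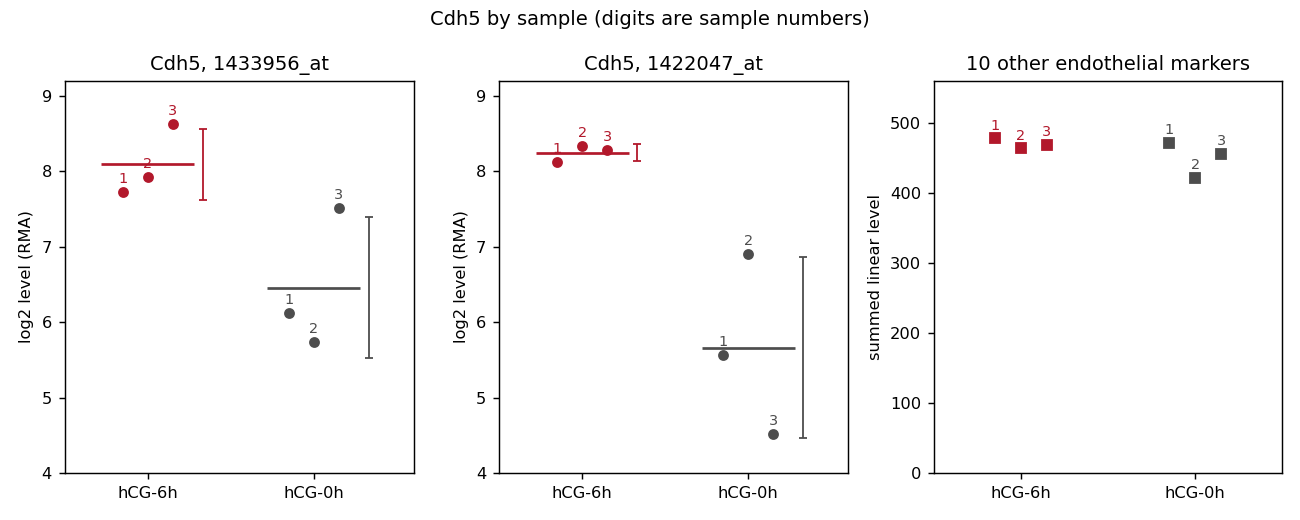
Log2 level of the 2 Cdh5 probe sets (left and middle; points are samples numbered 1 to 3, lines are means, bars are SD, n = 3 each) and the summed linear level of 10 other endothelial markers (right, axis from 0), with hCG-6h left of hCG-0h. The left panel is the brightest and the middle panel the dimmer probe set. Both probe sets are higher at hCG-6h while hCG-0h samples 2 and 3 change places between them, and the marker sum stays between 422 and 478.

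The genes whose profile over the 6 samples was nearest to that of the brightest Cdh5 probe set were Tnfaip8, Irx5, Steap2, Mpzl2 and Faap24. Likeness was the Euclidean distance between centred log2 values, which was 0.668 for Tnfaip8, 0.68 for Irx5 and 0.853 for Faap24. All 5 were higher at hCG-6h, with changes between 1.52 (Irx5) and 1.98 (Steap2). With 6 samples in 2 groups, such a likeness mostly shows a group difference of the same size, and it is given as a description.

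Cdh11, a cadherin of mesenchymal cells, was dim in every sample. Its 2 probe sets went opposite ways: the brighter read 4.56, 3.98 and 3.90 at hCG-6h, against 3.52, 3.54 and 3.75 at hCG-0h, whereas the dimmer read 3.02 to 3.12 at hCG-6h and 3.19 to 3.54 at hCG-0h. Both pairs of groups were without overlap, and neither change passed (0.54 ± 0.19 and -0.24 ± 0.13, SE). No direction is therefore given for Cdh11.

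Ctnnb1 encodes β-catenin, which binds the cadherin tail and serves as the effector of Wnt signalling. Its brightest probe set read 12.61, 12.61 and 12.65 at hCG-6h, against 12.57, 12.55 and 12.59 at hCG-0h. The groups did not overlap by a narrow margin, and the change of 0.05 ± 0.09 (SE) did not pass (adjusted p = 0.742). Its 95% interval of -0.16 to 0.267 corresponds to folds of 0.895 to 1.20, which makes this the most narrowly bounded of the 10 genes. The other 2 probe sets of Ctnnb1 changed by 0.04 ± 0.11 and 0.01 ± 0.26 (SE).

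Jup encodes plakoglobin, the relative of β-catenin that serves both adherens junctions and desmosomes. Its only probe set read 7.72, 5.99 and 7.34 in hCG-6h samples 1 to 3, against 7.37, 6.83 and 6.73 in hCG-0h samples 1 to 3. The hCG-6h group holds both the highest and the lowest value. The interval of the change, -1.01 to 1.09, holds folds of 0.496 to 2.13. A change of either sign within these folds cannot be told from none at this spread (adjusted p = 0.967). Without hCG-6h sample 2 the change was 0.55, and without hCG-6h sample 1 it was -0.31, and neither passed.

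Ctnna1 encodes αE-catenin, the link from β-catenin to actin. Its brightest probe set read 11.58, 11.53 and 11.56 at hCG-6h, against 11.26, 11.25 and 11.35 at hCG-0h. The next brightest read 11.23, 10.93 and 11.08 at hCG-6h, against 10.63, 10.88 and 10.83 at hCG-0h. Every hCG-6h value lay above every hCG-0h value in both, but neither change passed (0.27 ± 0.09, adjusted p = 0.0885 over genes, and 0.30 ± 0.13, SE). The other 2 probe sets lay in the low range of probe sets (mean log2 level under 5.89) and changed by 0.09 and 0.00. The brightest one has the array's suffix for probes that may also match other transcripts.

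Ctnnal1 encodes α-catulin, a relative of α-catenin. Its brightest probe set read 7.54, 8.19 and 7.72 in hCG-6h samples 1 to 3, against 9.04, 8.11 and 9.21 in hCG-0h samples 1 to 3. Here hCG-0h sample 2 fell inside the hCG-6h range while the other 2 hCG-0h samples lay well above it. The change of -0.97 ± 0.32 (SE) did not pass (adjusted p = 0.0755), and without hCG-0h sample 2 it was -1.31 and passed (adjusted p = 0.0126). The other probe set changed by -0.38 ± 0.24 (SE).

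Ctnnd1 encodes p120-catenin, which keeps cadherins at the cell surface. Its brightest probe set read 9.71, 9.87 and 10.26 at hCG-6h, against 10.56, 10.55 and 10.51 at hCG-0h. The hCG-0h samples were nearly equal, and each hCG-6h sample lay below them. Ctnnd1 fell by 0.59 ± 0.15 on the log2 scale (SE, adjusted p = 0.0362), which is 1.51-fold lower. The means of all 3 of its probe sets were lower at hCG-6h (changes of -0.59, -0.54 and -0.42), though the other 2 did not pass (adjusted p = 0.121 and 0.19). The call of Ctnnd1 was lost without any one of the samples except hCG-6h sample 3, with changes between -0.61 and -0.47 and adjusted p of 0.0866 to 0.104. It was also lost with the sample number as a block (adjusted p = 0.0677). The brightest probe set of Ctnnd1 and the only one of Jup have the array's suffix for probes shared by several transcripts.

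**Figure D3:**
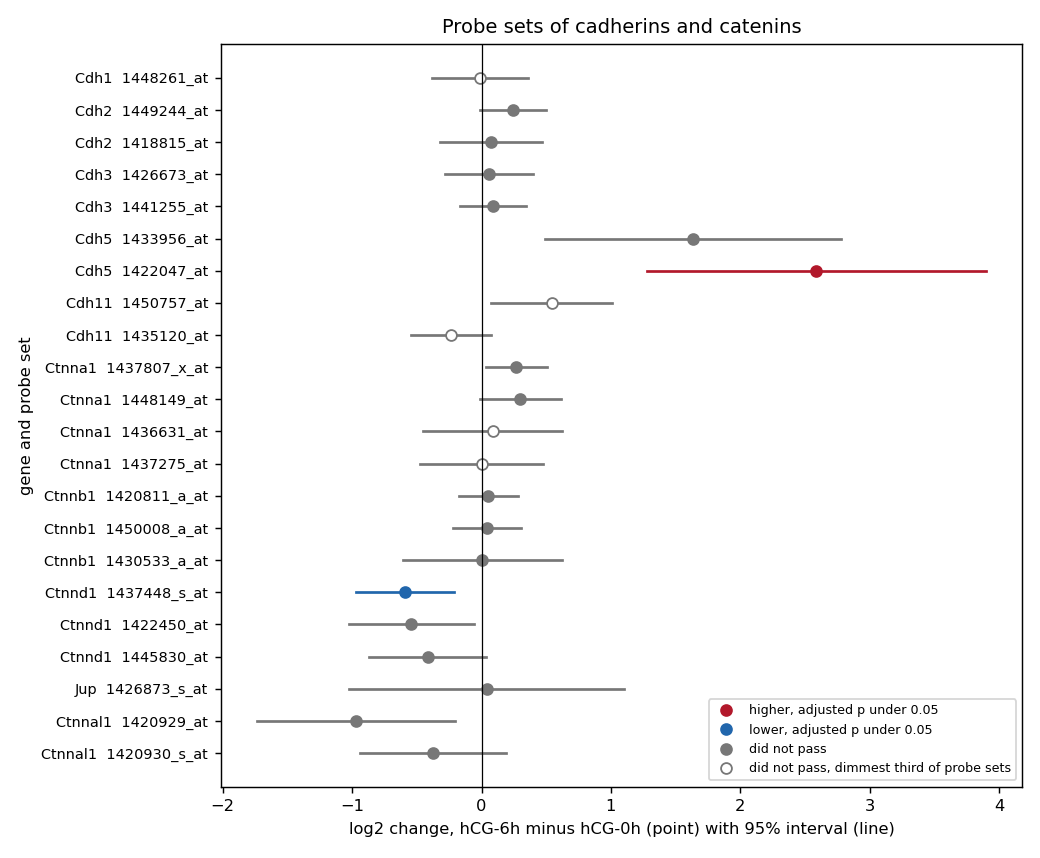
Log2 change (hCG-6h minus hCG-0h, horizontal axis) of the 22 probe sets of the 10 genes, with limma's 95% interval as a line; red is higher, blue is lower and grey did not pass, and open points lie in the low range of probe sets. The dimmer Cdh5 probe set and the brightest Ctnnd1 probe set passed, the 3 Ctnnd1 probe sets lie below 0 together, and the 2 Cdh11 probe sets lie on opposite sides of 0.

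Since Ctnnd1 was the gene that passed, the sequence around its annotated transcription starts is shown. RefSeq promoter windows, from 250 bases before to 50 bases after a start, were read for 4 of the 10 genes (6 windows). Windows on a further chromosome were left out before this count, so other members may have windows too. Of the windows read, 2 belong to Ctnnd1, on the minus strand of chromosome 2 in build GRCm38.p6. The upstream start is at chr2:84658928-84659227 and the downstream start is 8237 bases further along the gene at chr2:84650691-84650990. Capitals mark the core of the cyclic AMP response element, or CRE core (TGACG, or CGTCA on the other strand), which CREB factors bind, and CCAAT boxes (CCAAT, or ATTGG on the other strand), and the windows are written 5′ to 3′.
Ctnnd1 upstream start: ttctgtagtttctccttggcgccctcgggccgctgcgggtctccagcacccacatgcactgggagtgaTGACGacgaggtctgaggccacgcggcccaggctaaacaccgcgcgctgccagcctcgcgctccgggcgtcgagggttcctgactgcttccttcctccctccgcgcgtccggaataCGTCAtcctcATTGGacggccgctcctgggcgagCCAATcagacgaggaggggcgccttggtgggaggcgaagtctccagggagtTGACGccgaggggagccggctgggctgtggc
Ctnnd1 downstream start: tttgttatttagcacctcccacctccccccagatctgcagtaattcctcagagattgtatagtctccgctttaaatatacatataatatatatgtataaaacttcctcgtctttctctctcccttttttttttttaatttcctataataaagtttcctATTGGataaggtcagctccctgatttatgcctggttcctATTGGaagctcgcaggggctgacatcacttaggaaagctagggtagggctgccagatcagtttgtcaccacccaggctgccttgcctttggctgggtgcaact
The upstream window holds 3 CRE cores and 2 CCAAT boxes, and the downstream window holds 0 and 2. A CRE core was found in 20.8% and a CCAAT box in 37.4% of 32851 RefSeq windows of this length, on either strand. The GC box (GGGCGG) was found in neither Ctnnd1 window and in 35.7% of all windows, and the TATA box (TATAAA) in the downstream window and in 13.6% of all windows. These letters describe the windows and are no evidence of binding, and the probe sets do not tell which start was used.

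Other cadherins and catenin relatives mostly did not pass. Of 15 further cadherins measured, 1 rose, 0 fell and 14 did not pass, and 11 of the 15 lay in the low range. The share called, 6.67%, stood against 21.3% of all genes. Cdh17, the liver-intestine cadherin, was the one that rose, at 7.24, 6.36 and 5.79 in hCG-6h samples 1 to 3 against 4.59, 5.06 and 4.59 in hCG-0h samples 1 to 3 (change 1.72 ± 0.36, SE, adjusted p = 0.0162). It too lay in the low range, and its call was lost without hCG-0h sample 1 or 3 (adjusted p = 0.0584 and 0.0565). Of 10 other catenins and armadillo plaque proteins, Pkp2, a desmosomal plakophilin, was higher (0.88 ± 0.25, SE, adjusted p = 0.0488) and Pkp4, the p120-related p0071, was lower (-0.35 ± 0.10, SE, adjusted p = 0.0473). Neither call of the plakophilins appeared in any of their own probe sets tested singly (0 of 4 and 0 of 2), and both calls were lost without any one of the 6 samples. Together 20% of this list passed, near the 21.3% of all genes. The chosen probe set of Pkp2 also has a suffix for shared probes, as do those of Dsg2, Snai2 and Apcdd1 below. These lists, like those below, were chosen with earlier results of these data known.

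The lowest change in the partner lists was that of a gene of the desmosome, the other cadherin-based junction. Among 25 measured genes of desmosomes and tight junctions, 4 were lower, 1 was higher and 20 missed the threshold, with a median change of -0.05. The share that passed, 20%, is near the 21.3% of all genes, and 11 of the 25 lay in the low range. Dsp, desmoplakin, which ties the desmosome to keratin filaments, read 8.73, 8.50 and 9.48 at hCG-6h, against 12.07, 11.94 and 12.05 at hCG-0h. It was 8.67-fold lower at hCG-6h (change -3.12 ± 0.25, SE, adjusted p = 0.000287), and all 3 of its probe sets passed. Dsg2, a desmosomal cadherin, read 5.37, 5.40 and 5.33 at hCG-6h, against 7.73, 6.99 and 8.16 at hCG-0h, 4.79-fold lower, with 3 of 6 probe sets passing. With the probe sets of Dsg2 averaged the change was -1.31, against -2.26 by the brightest, and its hCG-6h values lay in the low range, where changes are compressed. Both genes had every hCG-6h value below every hCG-0h value.

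Also lower in this list were Perp, a tetraspan protein of desmosomes (change -1.21 ± 0.22, SE), and F11r, the junctional adhesion molecule A (-0.62 ± 0.15, SE). The F11r call was lost without hCG-6h sample 2 or 3 or hCG-0h sample 2 or 3, and with its probe sets averaged (-0.28, adjusted p = 0.124). Jam3, the junctional adhesion molecule C, was the member that rose, 1.76-fold, and without hCG-0h sample 3 there were 2 such members. Dsc2, the other desmosomal cadherin above the low range, did not pass (-0.41 ± 0.24, SE). Here and in the lists below, a gene beyond the 4 largest changes that passed is named after its values were seen. Krt8 and Krt18, keratins listed as surface epithelium markers, stood at 9.50 and 7.71 at hCG-6h, against 9.86 and 8.35 at hCG-0h, and the list's summed linear level was 1196 to 1795 at hCG-6h and 1652 to 1867 at hCG-0h. Their part in the falls was not tested.

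Nectins are the calcium-independent adhesion molecules of adherens junctions, joined to actin by afadin. In the list of nectins, afadin and actin linkers, 19 genes were measured, of which 6 were higher, 2 were lower and 11 missed the threshold, and the median change was 0.35. The 42.1% that passed stood against 21.3% of all genes. Nectin1 read 9.19, 8.19 and 8.47 at hCG-6h, against 11.50, 11.20 and 11.24 at hCG-0h, and was 6.48-fold lower at hCG-6h (change -2.70 ± 0.26, SE, adjusted p = 0.000604), with all 3 probe sets passing. Afdn, afadin itself, was lower too (-0.54 ± 0.10, SE). Those that rose were linkers and regulators of actin, with Actn1, α-actinin-1, 1.96-fold, Wtip, a LIM protein of junctions, 1.73-fold, and Iqgap1, a scaffold that binds actin and β-catenin, 1.61-fold higher. The others were Tln1, Vasp and Actn4 (0.68, 0.53 and 0.47), whose calls were each lost with 2 to 4 of the samples left out singly. Nectin2 and Nectin3 changed by 0.54 ± 0.27 and 0.66 ± 0.19 (SE) and did not pass (adjusted p = 0.224 and 0.0539). Vcl, vinculin, which joins α-catenin under tension, changed by -0.21 ± 0.16 (SE) and did not pass.

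Genes of cadherin turnover and phosphorylation were split. Among 21 measured, 5 were higher, 3 were lower and 13 missed the threshold (median change 0.15), so that 38.1% passed, against 21.3% of all genes. Yes1, a Src-family kinase, rose 1.87-fold, Ptprj, a receptor phosphatase, 1.86-fold, and Rab11a, a GTPase of recycling endosomes, 1.73-fold, beside Arf6 and Rap1a (0.52 and 0.51). Yes1 changed by only 0.27 when its 4 probe sets were averaged (adjusted p = 0.215). Those lower were Cbll1 (Hakai, a ubiquitin ligase known to act on E-cadherin), Fyn and Numb, with changes of -0.65, -0.61 and -0.60. The call of Cbll1 was lost without any one of the samples other than hCG-6h sample 1. Ptprj missed the threshold without hCG-0h sample 1 (adjusted p = 0.0516), and Rap1a and Fyn each missed it with 4 or 5 of the samples left out singly. In those fits 1 to 2 members of the list were lower.

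The repressors of E-cadherin also went both ways while Cdh1 stayed dim. Snai2, or Slug, read 7.26, 6.79 and 6.12 at hCG-6h, against 8.36, 9.85 and 8.59 at hCG-0h, 4.63-fold lower, and Zeb1 was 3.79-fold lower. With probe sets averaged the change of Zeb1 was -0.96, against -1.92 by the brightest. Snai1, in the low range, and Zeb2 were higher by 0.53 and 0.51, and 4 of the 8 measured did not pass, so that 50% passed, against 21.3% of all genes. With each single sample left out, 0 to 1 members rose and 2 fell. Only 1 of 4 probe sets of Zeb1 and 2 of 5 of Zeb2 passed singly.

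On the β-catenin side, none of the 17 measured genes of the destruction complex and its regulators passed (limma; unadjusted p under 0.05 in 3), against 21.3% of all genes. The changes lay between -0.41 and 0.73, and Gsk3b, Apc and Axin1 changed by 0.08, 0.14 and -0.15. Axin2, itself a common Wnt target, changed by 0.73 ± 0.34 (SE) and did not pass (adjusted p = 0.192). With probe sets averaged, 3 members were higher, and with trend and robust variance in the fit 1 was lower.

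Among 19 nuclear partners and common targets of β-catenin, 5 were higher, 1 was lower and 13 missed the threshold (median change 0.24), so that 31.6% passed, against 21.3% of all genes. The largest rise was that of Cd44, the hyaluronan receptor, 12.7-fold, at 9.31, 8.97 and 9.48 at hCG-6h against 5.92, 5.43 and 5.41 at hCG-0h. The hCG-0h values lay in the low range, and with the 4 probe sets of Cd44 averaged the change was 2.98, against 3.67 by the brightest. Apcdd1, an inhibitor of Wnt reception, rose 4.88-fold, Pygo2, a β-catenin co-activator, 2.05-fold, and the transcription factors Tcf7l2 and Lef1 by 0.86 and 0.53 on the log2 scale. The Lef1 call was lost without any one of the samples other than hCG-0h sample 1. Myc was 5.23-fold lower.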

How the data were processed

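Cumulus cell RNA of 6 mouse samples was hybridised to 1 single-colour array each. The deposited values are log2 values per probe set, made by the authors with RMA, GCOS and Affymetrix Expression Console 1.1, per the submitters' processing notes. RMA by definition subtracts background, normalises by quantiles and summarises probes, which compresses changes of dim genes. No genome build is named in the labels or files. Symbols came from the platform annotation: 34958 probe sets had 1 symbol, 932 had several and 9211 were not listed. A gene's value was its probe set with the highest mean (18194 genes). hCG-6h was compared with hCG-0h by limma 3.58.1 in R 4.3.3 (lmFit, eBayes, all 6 samples, no filter, two-sided, Benjamini-Hochberg over all genes or all 1-symbol probe sets, threshold 0.05). The fit was tested on simulated data. Errors are limma's SE, and their median over all genes was 0.146. Named genes were the 10 genes with all probe sets, up to 4 genes past the threshold with the largest changes in each list, and the 5 profiles nearest to the most changed of the 10. One list is not reported here. The members and lists were chosen with earlier results of these data known. Median log2 values of the arrays were 6.43 to 6.46. The number of arrays limits the precision.

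Alternatives were a block for sample number, trend and robust variance, quantile normalisation again, median centring, no dim genes, array weights, averaged probe sets, hCG-6h sample 1 alone, and each sample left out. Samples with the same number did not deviate together (correlations 0.0113, -0.0157 and 0.0286 over genes). Such correlations cannot tell whether same-numbered samples share an origin, so the numbers are not known to pair them.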

Additional observations from a re-analysis of the deposited data

How the results depend on the processing

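The 10 genes gave 1 call, lower, and with each sample left out 0 to 1 of them were called, 0 to 1 higher and 0 to 1 lower. With the sample number as a replicate block, 1 was called higher (Cdh5) and 0 lower, and of their probe sets 2 were higher and 0 lower; the numbers are not known to pair samples. Trend and robust variance called 4, 3 of them higher (Cdh2, Cdh5 and Ctnna1). Without low-range genes and with averaged probe sets 2 were called, 1 higher (Cdh5), and with hCG-6h sample 1 alone 2, 1 higher (Cdh11). Of the 22 probe sets, leaving out each sample gave 0 to 2 higher and 0 to 1 lower, and a fit on all probe sets of the array gave 0 lower. Over all genes, hCG-6h sample 1 alone gave 1577 calls, 810 higher and 767 lower, with fewer samples by construction and the lone sample assumed to vary like the hCG-0h samples, and under it the calls of the desmosome list fell to 1 lower and those of the actin linkers and of turnover to 0 higher. Ctnnd1 stayed lower in all 14 settings and passed in 8, and Cdh5 stayed higher in all 14 and passed in 5. The 5 of Cdh5 include the averaged probe sets, in which opposite deviations of the hCG-0h samples cancel. Cdh1, Cdh3 and Jup took either sign and passed in none. Among the genes named from the partner lists, Dsp, Nectin1, Cd44, Apcdd1, Pygo2, Tcf7l2 and Myc passed in all 14. So did the granulosa markers Slc38a3, Fshr, Amhr2 and Npr2. No other scaling moved the median change of all genes by 0.1 or more. With 3 arrays a group, small changes of dim genes near the arrays' floor are the least well measured.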
